A study of Mus musculus with 8 samples.

Results

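Selenoproteins are proteins that contain selenocysteine, an amino acid written in the mRNA by the codon UGA, which elsewhere ends translation. The mRNAs of 9 selenoproteins were followed in the mouse myoblast line C2C12, in RNA loaded on heavy polysomes and in total RNA. They were taken by symbol from a list of 10 names, out of 23420 gene lines, and all 9 had counts high enough to be tested among 13167 genes. The tenth name, Selt, was not analysed here. The 9 are Gpx1, Gpx3, Gpx4, Txnrd1, Txnrd2, Sepw1 (now Selenow), Selm (Selenom), Selk (Selenok) and Sepn1 (Selenon). The list was drawn up with earlier results of these libraries known, among them the polysome and total values of Sepw1. Values of polysome against total RNA are therefore a description here and carry no test.

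The 8 libraries form 4 groups of 2, namely AUF1 polysome, WT polysome, AUF1 total and WT total. AUF1 cells overexpressed AUF1 (gene Hnrnpd), a protein that attaches to AU-rich stretches of mRNAs, and WT cells carry the genotype label WT only. Both were C2C12 cells, grown in medium with 10% fetal bovine serum and then held for 48 h in 2% horse serum, which starts their fusion into myotubes. The promoter and vector behind the overexpression, whether a line is 1 clone or a pool, and what the WT cells were given in its place are not stated in the labels. The polysome libraries are titled High and their molecule is cytoplasmic RNA, read here as the heavy polysome fraction that the study's design describes. Replicates are numbered 1 and 2 as in the sample titles, although the column names and descriptions give number 3 to the second, and nothing says whether they were separate cultures, so the spread between them may be technical.

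Reading UGA as selenocysteine needs a hairpin in the 3′ untranslated region (the SECIS element), a protein that binds it (Secisbp2), a dedicated elongation factor (Eefsec) and a tRNA charged with selenocysteine. Where this machinery is short of selenium, ribosomes can stop at the UGA, and some selenoprotein mRNAs are then lost through nonsense-mediated decay. Selenoproteins are mostly redox enzymes. In skeletal muscle, mutations of human SEPN1 cause a congenital myopathy, and selenium deficiency causes white muscle disease in livestock.

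The selenocysteine codon is the feature that all 9 mRNAs share, and it is shown here with its surroundings. Each line gives the 12 bases before the codon, the codon in capitals and the 12 bases after it, as DNA letters 5′ to 3′ on the gene's own strand, from the GENCODE M21 transcripts of mm10. In Txnrd1, Txnrd2 and Selk the line runs past the stop codon.
Gpx1: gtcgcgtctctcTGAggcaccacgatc
Gpx3: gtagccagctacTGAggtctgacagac
Gpx4: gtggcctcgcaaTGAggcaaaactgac
Txnrd1: cagtctggctgcTGAggttaagcccca
Txnrd2: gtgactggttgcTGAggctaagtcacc
Sepw1: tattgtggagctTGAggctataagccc
Selm: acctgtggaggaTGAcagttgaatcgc
Selk: atggctggtggaTGAggaaggtaaatg
Sepn1: gaccagtcctgcTGAggttccgggcgg

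All 9 mRNAs had 1 such codon in frame. The base after it was G in 8 of them and C in Selm. The codons lie at chr9:108339451-108339453 in Gpx1, chr11:54907256-54907258 in Gpx3, chr10:80054737-80054739 in Gpx4, chr10:82896037-82896039 in Txnrd1 and chr16:18477772-18477774 in Txnrd2. They lie at chr7:15920464-15920466 in Sepw1, chr11:3516273-3516275 in Selm, chr14:29973440-29973442 in Selk and chr4:134542338-134542340 in Sepn1, with Sepw1 and Sepn1 on the minus strand and the other 7 on the plus strand. In the protein the residue is number 13 of 88 in Sepw1, 47 of 201 in Gpx1, 48 of 145 in Selm, 73 of 226 in Gpx3, 73 of 197 in Gpx4 and 428 of 557 in Sepn1. It lies within 3 residues of the end in the other 3, as number 498 of 499 in Txnrd1, 526 of 527 in Txnrd2 and 92 of 94 in Selk.

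Counts assigned to genes numbered 25281224 to 34917660 per library, and a member had 317 to 15199 counts in a library. Levels are given as CPM, counts over the library total times its TMM factor (0.818 to 1.127), so they are relative levels and not amounts per cell. Hnrnpd had 549 and 427 CPM in AUF1 polysome RNA against 106 and 131 CPM in WT polysome RNA, and 448 and 397 CPM in AUF1 total RNA against 64.2 and 99.6 CPM in WT total RNA. It was higher with a log2 fold change of 2.37 ± 0.32 (SE) in total RNA (edgeR's quasi-likelihood test, adjusted p = 0.0413) and of 2.04 ± 0.32 on polysomes (adjusted p = 0.0608), and with any 1 of the 8 libraries left out the log2 fold change in total RNA stayed between 1.98 and 2.72, while its adjusted p was between 0.0932 and 0.393. The first principal component of all tested genes (44.6% of the variance) separated replicate 1 from replicate 2, and the second (37.1%) AUF1 from WT. Of the tested genes, 6.92% to 11.2% differed over 4-fold between the replicates of a group. All 8 myoblast and myotube markers had counts. The 5 adipocyte markers summed to at most 0.413 CPM, with Plin1, Lep and Cfd at 0 in every library. Endothelial markers summed to at most 7.56 CPM and immune markers to at most 13.9 CPM. The 6 fibroblast markers summed to between 604 and 3483 CPM.

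Sepw1 encodes selenoprotein W, a small thioredoxin-like protein that is abundant in muscle. Its mRNA had 33.5 and 44.2 CPM in AUF1 polysome RNA (replicates 1 and 2) against 192 and 175 CPM in AUF1 total RNA. In WT cells it had 67.5 and 62.4 CPM in polysome RNA against 302 and 328 CPM in total RNA. Every polysome library was below every total library. On polysomes the level was thus 17.5% and 25.3% of the total level in AUF1 cells and 22.3% and 19% in WT cells. The log2 fold change of polysome over total RNA was -2.24 ± 0.25 (SE) in AUF1 cells, or 4.71-fold lower, with -2.51 within replicate 1 and -1.98 within replicate 2. In WT cells it was -2.28 ± 0.25, or 4.85-fold lower, with -2.16 within replicate 1 and -2.39 within replicate 2. Among the 13167 tested genes, 21 in AUF1 cells and 17 in WT cells had a lower value. These ratios compare relative levels in different kinds of RNA and are not loaded shares of the mRNA. Fewer cells with the mRNA on heavy polysomes, a smaller loaded share in every cell, or neither, cannot be told apart in bulk RNA.

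**Figure D1:**
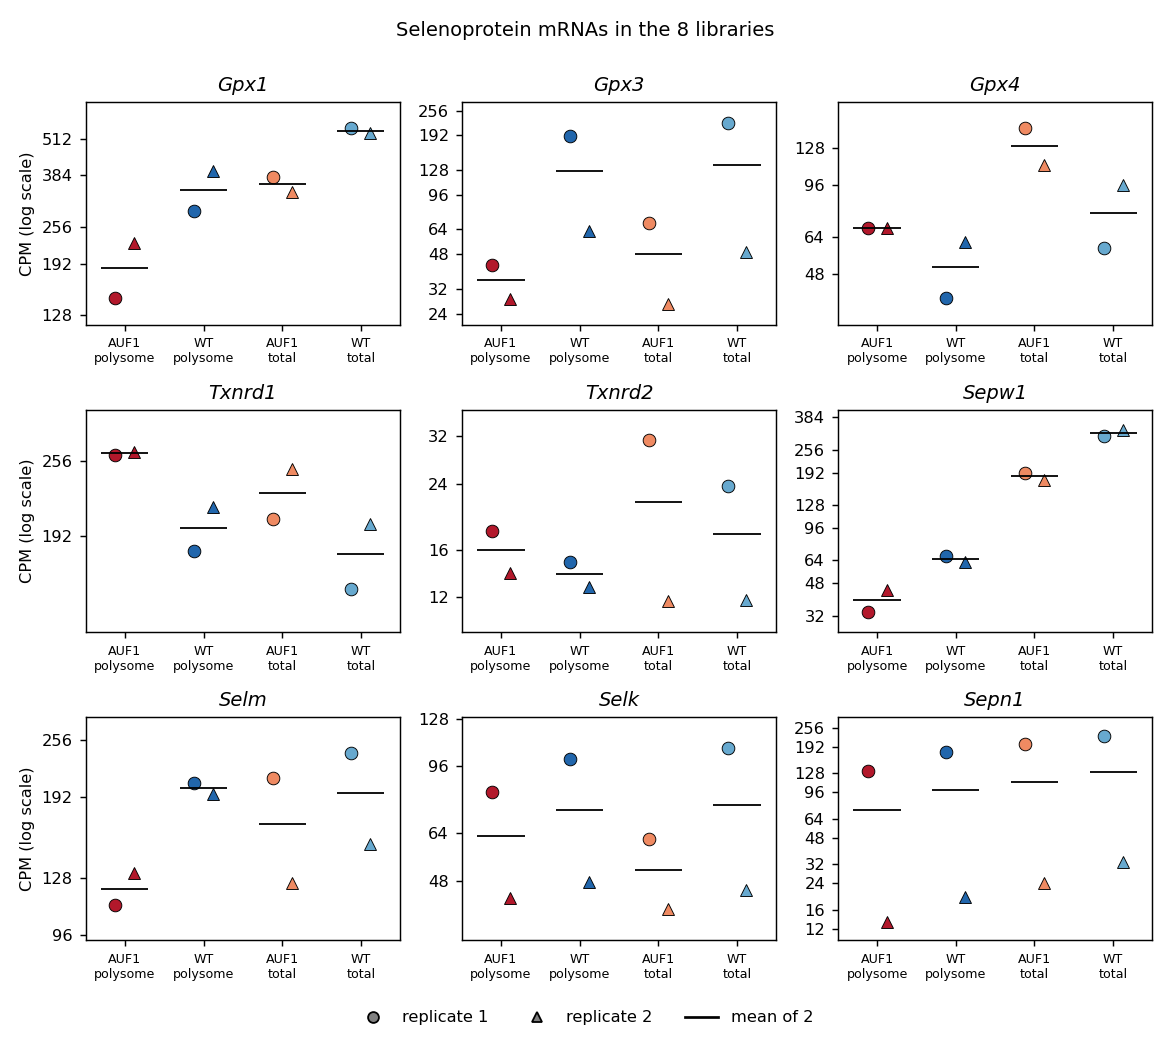
CPM (log scale, a separate range per gene) of the 9 selenoprotein mRNAs in AUF1 polysome, WT polysome, AUF1 total and WT total libraries. Circles are replicate 1, triangles replicate 2 and bars the mean of 2. Sepw1 lies between 33.5 and 67.5 CPM in the polysome libraries and between 175 and 328 CPM in the total ones, while Sepn1 splits by replicate in every group.

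The glutathione peroxidases reduce peroxides with glutathione. Gpx1, the cytosolic enzyme, had 146 and 225 CPM in AUF1 polysome RNA against 379.9 and 338 CPM in AUF1 total RNA, and in WT cells 289.9 and 397 CPM on polysomes against 557 and 534 CPM in total RNA. The polysome libraries were below the total libraries in both genotypes, with log2 fold changes of -0.95 ± 0.30 in AUF1 cells (-1.38 within replicate 1 and -0.59 within replicate 2) and -0.67 ± 0.30 in WT cells (-0.94 and -0.43).

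Gpx4, which reduces lipid hydroperoxides in membranes and protects cells from ferroptosis, had 68.9 CPM in both AUF1 polysome libraries against 149 and 112 CPM in AUF1 total RNA. In WT cells it had 39.8 and 61.5 CPM on polysomes against 58.8 and 96.0 CPM in total RNA, where the 2 groups overlapped. Its polysome over total log2 fold change was -0.92 ± 0.36 in AUF1 cells and -0.61 ± 0.36 in WT cells, and it was below 0 within both replicate numbers, between -1.11 and -0.56.

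Gpx3, the secreted peroxidase, had 42.2 and 28.3 CPM in AUF1 polysome RNA against 69.0 and 26.9 CPM in AUF1 total RNA, and 189.8 and 63.2 CPM in WT polysome RNA against 222 and 49.2 CPM in WT total RNA. The groups overlapped, and replicate 1 was the higher one in each of the 4 groups. Its log2 fold changes were -0.44 ± 0.86 in AUF1 cells and -0.10 ± 0.86 in WT cells, below 0 within replicate 1 and above 0 within replicate 2 in both.

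The thioredoxin reductases pass electrons from NADPH to thioredoxin. Txnrd1, the cytosolic one, had 262 and 265 CPM in AUF1 polysome RNA against 205 and 249 CPM in AUF1 total RNA, and 181 and 215 CPM in WT polysome RNA against 156 and 201 CPM in WT total RNA. Polysome levels were the higher ones within each replicate number, without overlap in AUF1 cells. The log2 fold changes were small, 0.22 ± 0.25 in AUF1 cells and 0.15 ± 0.25 in WT cells. Txnrd2, the mitochondrial one, was the scarcest member and had 18 and 13.9 CPM in AUF1 polysome RNA against 31.2 and 11.7 CPM in AUF1 total RNA. In WT cells it had 14.9 and 12.8 CPM on polysomes against 23.7 and 11.8 CPM in total RNA. Its polysome over total values were -0.43 ± 0.55 in AUF1 cells and -0.36 ± 0.55 in WT cells, again below 0 within replicate 1 and above 0 within replicate 2.

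Selm, Selk and Sepn1 encode proteins of the endoplasmic reticulum. Selm, a thioredoxin-like protein, had 112 and 131 CPM in AUF1 polysome RNA against 211 and 125 CPM in AUF1 total RNA, and 206 and 195 CPM in WT polysome RNA against 240.1 and 152 CPM in WT total RNA. Its groups overlapped, with log2 fold changes of -0.47 ± 0.35 in AUF1 cells and 0.03 ± 0.35 in WT cells. Selk, a membrane protein needed for palmitoylation of calcium channels in mouse immune cells, had 82.4 and 43.2 CPM in AUF1 polysome RNA against 61.9 and 40.5 CPM in AUF1 total RNA, and 100.1 and 47.7 CPM in WT polysome RNA against 107 and 45.5 CPM in WT total RNA. Its values of 0.29 ± 0.59 in AUF1 cells and -0.04 ± 0.59 in WT cells had no direction beyond the spread.

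Sepn1, a membrane protein that regulates calcium handling, had 132 and 13.4 CPM in AUF1 polysome RNA against 200.0 and 24.3 CPM in AUF1 total RNA, and 178 and 19.4 CPM in WT polysome RNA against 227 and 33.3 CPM in WT total RNA. Replicate 1 was 9.83-fold above replicate 2 in AUF1 polysome, 9.18-fold in WT polysome, 8.23-fold in AUF1 total and 6.84-fold in WT total RNA. Within a replicate number the polysome over total log2 fold change lay between -0.85 and -0.35 in all 4 pairs, but against the spread between replicates it was -0.63 ± 1.61 in AUF1 cells and -0.40 ± 1.60 in WT cells.

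**Figure D2:**
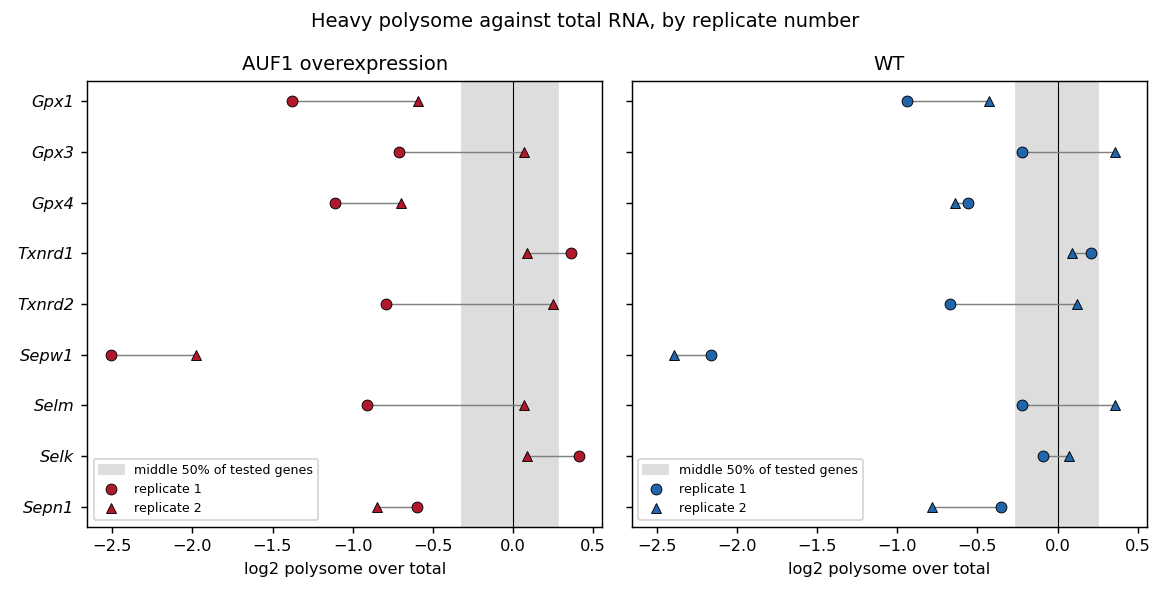
Log2 fold change of polysome over total RNA within replicate 1 (circles) and within replicate 2 (triangles) for each of the 9 mRNAs, in AUF1 cells on the left and WT cells on the right, with grey lines joining the 2 values of a gene and the grey band marking the interquartile range of all tested genes. Sepw1 lies between -2.51 and -1.98 in AUF1 and between -2.39 and -2.16 in WT cells, and the values of the other 8 lie between -1.38 and 0.41.

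Across the 9 mRNAs, the median log2 fold change of polysome over total RNA was -0.47 in AUF1 cells, where it was -0.02 over all tested genes, and -0.36 in WT cells, where it was 0.02 over all tested genes. In AUF1 cells 3 of the 9 had both polysome libraries below both total libraries (Sepw1, Gpx1 and Gpx4), and 1 had them above (Txnrd1). Among all tested genes 13.4% were so below and 8.86% so above. In WT cells 2 of the 9 were below (Sepw1 and Gpx1) and 0 above, where 14.9% of all genes were below and 13% above. Per length of transcript, Sepw1 averaged 52.8 CPM per kilobase in AUF1 polysome RNA, the fifth of the 9, and 249 CPM per kilobase in AUF1 total RNA, the second behind Gpx1 at 335. In WT cells it averaged 88.2 CPM per kilobase on polysomes, the third behind Gpx1 at 320.4 and Selm at 284, and 428 CPM per kilobase in total RNA, the second behind Gpx1 at 509. Its place was not separated from the next gene in 3 of the 4 groups, since its libraries overlapped those of Selk (mean 37.4 CPM per kilobase) in AUF1 polysome, of Gpx3 (79.3) in WT polysome and of Selm (237) in AUF1 total RNA.

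A short coding region holds fewer ribosomes, and Sepw1 and Selk encode the shortest of the 9 proteins. Among tested genes with a protein under 150 residues, the median log2 fold change of polysome over total RNA was -0.04 in AUF1 cells and 0.09 in WT cells (813 genes). It was 0.10 in AUF1 and 0.18 in WT cells from 150 to under 300 residues (2511 genes), -0.01 and 0.01 from 300 to under 600 residues (4858 genes), and -0.14 and -0.09 for 600 residues or more (4415 genes). Across these 12597 genes, which share the same 8 libraries and are not independent, Spearman's rho between protein length and the polysome over total value was -0.18 in AUF1 and -0.23 in WT cells. Of the 813 shortest, 2 in AUF1 cells and 1 in WT cells had a value below that of Sepw1. For Selk, with 94 residues, the shares of the class below it were 78.5% in AUF1 and 37.0% in WT cells. The class holds all proteins under 150 residues and is not matched to the 88 residues of Sepw1. The part of length in these values was not tested.

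**Figure D3:**
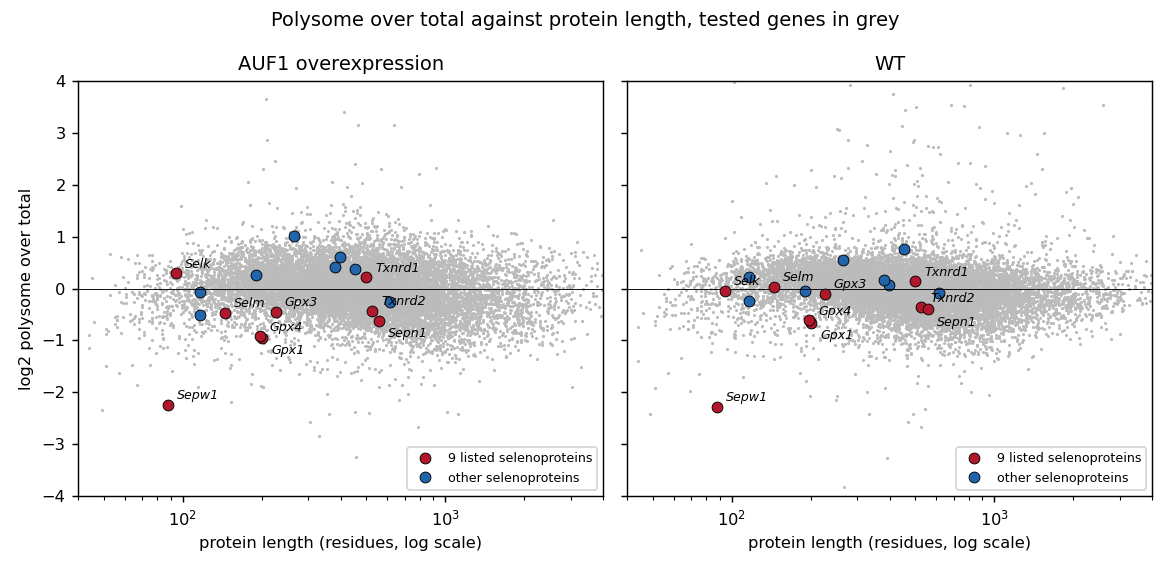
Log2 fold change of polysome over total RNA against protein length in residues (log scale), in AUF1 cells on the left and WT cells on the right. Grey points are tested genes, red points the 9 listed selenoproteins and blue points the other 8 that were tested, and genes outside the axes are not drawn. Sepw1, with 88 residues, lies below all but 2 genes with proteins under 150 residues in AUF1 cells and all but 1 in WT cells, while Selk, with 94 residues, lies among them.

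Grouped by the place of the selenocysteine codon, a grouping made after the values were seen, Txnrd1, Txnrd2 and Selk with the codon at the very end had polysome over total log2 fold changes between -0.43 and 0.29 in AUF1 cells and between -0.36 and 0.15 in WT cells. The 6 with an earlier codon lay between -2.24 and -0.44 in AUF1 cells and between -2.28 and 0.03 in WT cells, so the 2 classes lay next to each other in AUF1 cells and overlapped in WT cells. Of the 6 other tested selenoproteins with 1 such codon, Txnrd3, Ept1 and Vimp have it within 10 residues of the end and had values between -0.25 and 0.61 in AUF1 and between -0.08 and 0.06 in WT cells. Sephs2, 2700094K13Rik and Msrb1 have it earlier and had values between -0.51 and 0.38 in AUF1 and between -0.24 and 0.76 in WT cells.

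Of 11 further selenoprotein genes in the counts, 8 were tested, and Dio1, Dio3 and Gpx2 had 0 counts in every library. Beside the medians of the 9 listed, -0.47 in AUF1 and -0.36 in WT cells, the polysome over total log2 fold changes of these 8 had medians of 0.32 in AUF1 and 0.12 in WT cells. Sephs2, which makes the selenium donor of the pathway and is itself a selenoprotein, had 51.8 and 70.6 CPM in AUF1 polysome RNA against 44.7 and 49.4 CPM in AUF1 total RNA, and 44.1 and 65.1 CPM in WT polysome RNA against 30.1 and 34.5 CPM in WT total RNA. It was higher on polysomes without overlap in both genotypes, with log2 fold changes of 0.38 ± 0.31 in AUF1 and 0.76 ± 0.31 in WT cells. Among all tested genes 8.86% in AUF1 and 13% in WT cells were so higher. Sephs2 was named because of its small p for polysome against total RNA, so these values are a description only. Dio2, the deiodinase that activates thyroid hormone, stood at 1.01 ± 0.56 in AUF1 and 0.55 ± 0.55 in WT cells, and 2700094K13Rik, which encodes selenoprotein H, at -0.51 ± 0.33 in AUF1 and -0.24 ± 0.33 in WT cells.

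Among 14 genes of selenocysteine insertion, with Sephs2 counted here again, the median polysome over total value was 0.06 in AUF1 and -0.13 in WT cells. Sars, whose product loads serine on the selenocysteine tRNA, was lower on polysomes at -0.69 ± 0.35 in AUF1 and -0.74 ± 0.35 in WT cells, and Eefsec was at -0.63 ± 0.40 and -0.41 ± 0.40. Rpl30, another gene of this list, has near-identical copies in the genome and only 0.77 to 2.63 CPM here, so its level is uncertain. Of 6 cysteine-containing relatives of selenoproteins, listed by sequence or by function, 5 were tested, with a median of 0.20 in both genotypes. Msrb3, a methionine sulfoxide reductase, was at 0.67 ± 0.31 in AUF1 and 0.49 ± 0.30 in WT cells, Mien1, a relative of selenoprotein W, at -0.53 ± 0.43 and -0.37 ± 0.43, and Msra, another methionine sulfoxide reductase, at 0.08 ± 0.35 and 0.20 ± 0.35.

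The 20 genes of the thioredoxin and glutathione system had median values of 0.09 in AUF1 and 0.13 in WT cells. Catalase (Cat) was at -0.55 ± 0.31 in AUF1 and -0.93 ± 0.31 in WT cells, and glutathione synthetase (Gss) at -0.60 ± 0.28 and -0.61 ± 0.28. Gclm, a subunit of the enzyme that starts glutathione synthesis, was at 0.50 ± 0.28 and 0.34 ± 0.28. Among 14 targets of the oxidative stress factor Nrf2, with a median of -0.03 in both genotypes, the ferritin chains were lower on polysomes in every library. Fth1, the heavy chain, had 708 and 905 CPM in AUF1 polysome RNA against 3064 and 2706 CPM in AUF1 total RNA, and 806 and 682 CPM in WT polysome RNA against 2257 and 2356 CPM in WT total RNA. Its log2 fold changes were -1.84 ± 0.24 in AUF1 and -1.63 ± 0.24 in WT cells. Ftl1, the light chain, was at -1.65 ± 0.24 and -1.21 ± 0.24. G6pdx, whose product supplies NADPH, was at -0.80 ± 0.31 and -0.88 ± 0.31. Ferritin mRNAs are a textbook case of translational control, through an iron-responsive element near their 5′ end that iron regulatory proteins bind when iron is scarce.

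The genes whose log2 CPM over the 8 libraries followed Sepw1 most closely, out of 9661 compared, were Tmem134 (Pearson's r = 0.985), 0610007N19Rik (0.983), Ftl1 (0.98) and Ptk2b (0.972). A line whose name had been turned into a date came between Ftl1 and Ptk2b and is not named. These r describe 8 libraries in which Sepw1 itself forms a low polysome and a high total cluster. Among the members Gpx1 followed Sepw1 most closely with r = 0.873, and Txnrd1 ran the other way with r = -0.599.

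The comparison of genotypes, which asks how AUF1 overexpression moved mRNA levels and loading, was tested. Here and on polysomes the fit has no term for replicate number, although the first principal component separated the replicates. The calls with such a term are given in the last section. In total RNA 0 of the 9 passed an adjusted p of 0.05 in edgeR's quasi-likelihood test, where 1.02% of all tested genes did. At an unadjusted p under 0.05 there was 1 of the 9, Sepw1, beside 13.7% of all tested genes, and DESeq2 called 0 of the 9 and 6.23% of all tested genes. Sepw1 was lower in AUF1 total RNA (192 and 175 CPM) than in WT total RNA (302 and 328 CPM), without overlap, at a log2 fold change of -0.78 ± 0.24 (adjusted p = 0.224), and it was lower within replicate 1 (-0.66) and replicate 2 (-0.91). Gpx1 did likewise at -0.60 ± 0.30 (adjusted p = 0.466), whereas Gpx4 and Txnrd1 lay above WT without overlap. Gpx4 averaged 130.3 ± 26.2 CPM in AUF1 and 77.4 ± 26.3 CPM in WT total RNA (SD, n = 2 each), at 0.75 ± 0.36 (SE, adjusted p = 0.438), with 1.34 within replicate 1 and 0.22 within replicate 2. Txnrd1 was at 0.34 ± 0.25 (adjusted p = 0.651). These are 2 of 9 lower and 2 of 9 higher without overlap, beside 17.8% and 22.5% of all tested genes. Gpx3 had the lowest log2 fold change of the 9 in total RNA, -1.50 (adjusted p = 0.544 in edgeR's test), but its groups overlapped. It had 69.0 and 26.9 CPM in AUF1 against 222 and 49.2 CPM in WT total RNA, lower within both replicate numbers.

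On polysomes 0 of the 9 passed, where 0.349% of tested genes did, and DESeq2 called 0 of the 9 and 6.11% of tested genes. Sepw1 and Gpx1, 2 of the 9, had an unadjusted p under 0.05, beside 14.1% of tested genes. Sepw1 was at -0.74 ± 0.24 (adjusted p = 0.248), with -1.01 within replicate 1 and -0.50 within replicate 2. Gpx1 was at -0.89 ± 0.30 (adjusted p = 0.26), with -0.99 and -0.82. Gpx3 averaged 35.3 ± 9.82 CPM in AUF1 and 126 ± 89.5 CPM in WT polysome RNA (SD, n = 2 each), at -1.84 ± 0.88 (SE, adjusted p = 0.431). Selm averaged 121 ± 13.2 CPM in AUF1 and 201 ± 8.2 CPM in WT polysome RNA, at -0.73 ± 0.36 (SE, adjusted p = 0.438), and it was at -0.23 ± 0.35 in total RNA (adjusted p = 0.878). These 4 were below WT without overlap, and Gpx4 and Txnrd1 were above it, beside 21.3% of all tested genes below and 23.6% above. The other 3 (Txnrd2, Selk and Sepn1) overlapped between genotypes in both kinds of RNA.

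**Figure D4:**
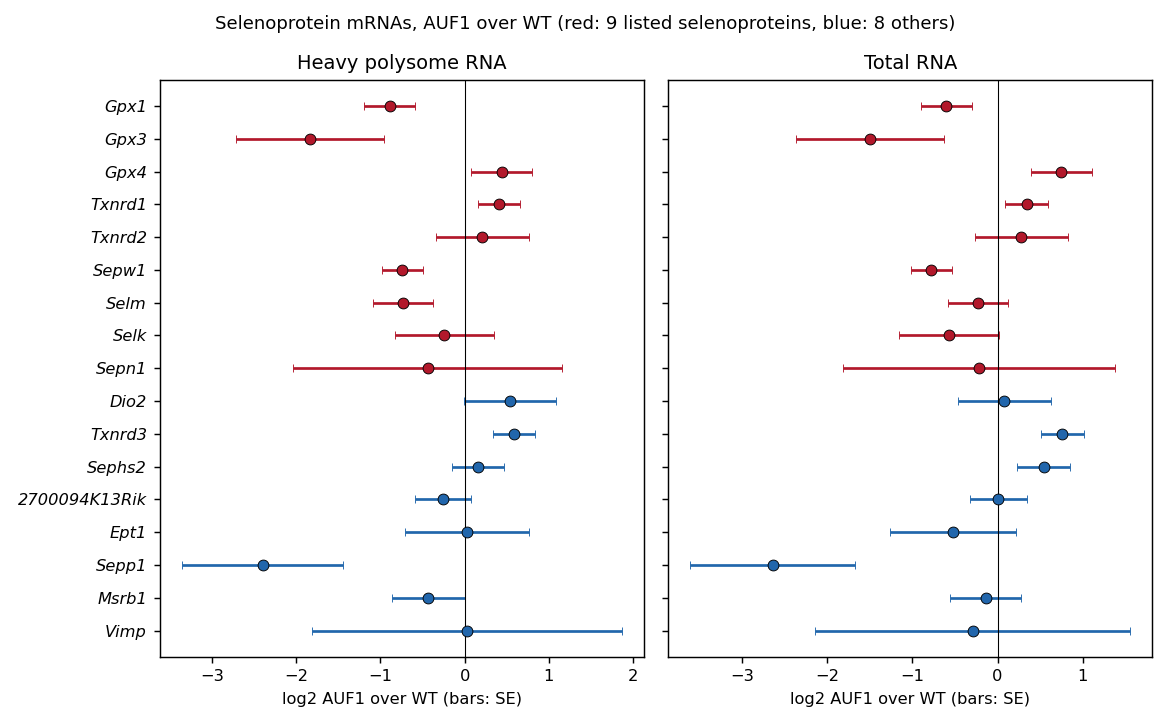
Fitted log2 fold change of AUF1 over WT in polysome RNA (left) and total RNA (right), with bars of ± 1 SE, for the 9 listed selenoproteins (red) and the 8 others tested (blue). Sepw1 and Gpx1 lie below 0 and Gpx4 and Txnrd1 above 0 in both kinds of RNA, and the bars of Sepn1 span 0. In edgeR's test without a term for replicate number, none of the 9 and none of the 8 passed the adjusted threshold.

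The difference between the genotypes in polysome over total RNA was tested as an interaction. For Sepw1 it was 0.04 ± 0.34 on the log2 scale, and for the other 8 it lay between -0.50 ± 0.50 (Selm) and 0.34 ± 0.83 (Selk). The adjusted p was 1.0 for each of the 9 in edgeR's quasi-likelihood test, where 0.0% of all tested genes passed. At an unadjusted p under 0.05 there were 0 of the 9 and 0.122% of all tested genes, and DESeq2 called 0 genes (0.0%). SEs between 0.34 and 2.26 leave room for differences that these libraries could not show.

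Marker levels moved with the genotype beside these values. The 8 myoblast and myotube markers summed to 15100.2 to 17873 CPM in AUF1 polysome RNA against 3192 to 4688 CPM in WT polysome RNA. In total RNA they summed to 18083 to 22919 CPM in AUF1 cells against 3983 to 4473 CPM in WT cells. Acta1 was the largest part of each sum. In edgeR's test without a term for replicate number, 3 of the 8 (Ckm, Myh3 and Acta1) passed the threshold in total RNA, beside 1.02% of all tested genes. On polysomes 0 of the 8 passed, beside 0.349% of all tested genes. The log2 fold change was above 0 for 7 of the 8 in each kind of RNA and below 0 for Myf5. Myf5 had 34.7 and 33.5 CPM in AUF1 polysome RNA against 40.5 and 55.9 CPM in WT polysome RNA. In total RNA, where its groups overlapped, it had 13.2 and 25.7 CPM against 20.7 and 46.2 CPM. The 6 fibroblast markers summed to 684 to 855 CPM in AUF1 polysome RNA against 1639.6 to 3447 CPM in WT polysome RNA, and to 604 to 1559 CPM in AUF1 total RNA against 1352 to 3483 CPM in WT total RNA. Their part in the selenoprotein values was not tested.

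Outside the list, 0 of the 8 other selenoproteins and 0 of the genes of the other 4 lists passed edgeR's test in either genotype comparison or in the interaction. This holds for the fit without a term for replicate number. With such a term some of these genes were called, as given in the last section. At an unadjusted p under 0.05 in total RNA there were 2 of 8 other selenoproteins and 2 of 14 genes of selenocysteine insertion. There were also 1 of 5 cysteine-containing relatives, 4 of 20 genes of the thioredoxin and glutathione system and 0 of 14 Nrf2 targets. Among all tested genes the share was 13.7%. On polysomes there were 1, 3, 0, 5 and 2 in the same order of lists, beside 14.1% of all tested genes. For the interaction there were 0 in each list, beside 0.122% of all tested genes. DESeq2 called Sepp1 and Trit1 in total RNA, beside 6.23% of all tested genes, and Trit1 on polysomes, beside 6.11%. Sepp1, which encodes the secreted selenium carrier selenoprotein P and was chosen after its values were seen, had 26.1 and 10.1 CPM in AUF1 polysome RNA against 157 and 34.2 CPM in WT polysome RNA, and 17.0 and 10.3 CPM in AUF1 total RNA against 134 and 36.3 CPM in WT total RNA. It was lower without overlap at -2.40 ± 0.96 on polysomes (adjusted p = 0.334) and -2.64 ± 0.97 in total RNA (adjusted p = 0.299). Of all tested genes, 21.3% on polysomes and 17.8% in total RNA were lower without overlap. Trit1, which modifies the selenocysteine tRNA and was chosen in the same way, had 77.8 and 68.9 CPM in AUF1 polysome RNA against 38.3 and 30.5 CPM in WT polysome RNA, at 1.09 ± 0.26 (adjusted p = 0.131).

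The short motif ATTTA, the core of AU-rich elements that AUF1 can bind, was searched on the transcript strand of each 3′ untranslated region. Txnrd1 and Selk held 4 copies each and the other 7 members 0. Among untranslated regions within 20% of the same length, 87.2% held it for Txnrd1 and 77.8% for Selk, and 24.9% to 87.8% for the other 7. A match in letters is not a binding site. Selk has 6 named pseudogenes and Gpx4 has 1, so reads could be split there.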

How the data were processed

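Total and heavy polysome RNA of C2C12 cells was sequenced in 8 libraries. The authors deposited raw counts per gene symbol, and per the submitters' processing notes they used cutadapt, Bowtie, Trimmomatic, STAR, SAMtools and mm10. Neither their versions nor the counting program, its strand setting or its annotation are stated there. Reads outside genes (6.043% to 7.234% of counts) and ambiguous reads (0.254% to 0.389%) were left out. Lines with names turned into dates (0.216% to 0.327%) were kept in the fits.

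Genes kept by filterByExpr (13167) were scaled by TMM and fitted with 1 coefficient per group in edgeR 4.0.16 (R 4.3.3), by the two-sided quasi-likelihood test with Benjamini-Hochberg adjustment over all genes of a comparison and a threshold of 0.05. The log2 values within a replicate number and for likeness use log2 CPM with a prior count of 2, and SD is over 2 libraries. SE was computed back from the quasi-likelihood test, as the absolute log2 fold change divided by the square root of its F statistic. DESeq2 1.42.0, other scalings, no filter, a replicate block and leaving out each library were tried. The code was tested on simulated data. Symbols were matched to GENCODE M21 (21751 of 23420 lines by symbol, 1248 by a RefSeq synonym), and residues, codons and untranslated regions come from 1 transcript a gene.

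The members and lists were chosen with earlier results of these data known. Named are all members, Hnrnpd, list genes past the threshold in a genotype comparison, up to 3 genes per list with the smallest p for polysome against total RNA, and the 5 genes most like Sepw1 among those whose log2 CPM averaged 3 or more.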

Additional observations from a re-analysis of the deposited data

How the results depend on the processing

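Alternatives other than leaving out a library changed how many genes were called more than the members' values. Leaving out 1 library also moved the values of several members widely. For polysome against total RNA the planned model called 0 genes in each genotype. DESeq2 called 22 in AUF1 and 29 in WT cells, the replicate block 2 in each, and leaving low counts unfiltered 1 in AUF1 cells, and DESeq2 and the block each called 1 member, Sepw1, in each genotype, beside 0.167% (AUF1) and 0.22% (WT) of all tested genes called by DESeq2 and 0.0152% by the block. The list was chosen with these Sepw1 values known, so nothing is read from those calls. For AUF1 against WT in total RNA the 134 calls became 824 with DESeq2 over its own set of genes, 0 with RLE or upper-quartile scaling, 1730 with the replicate block and 0 with any 1 library left out. On polysomes the 46 calls became 809 with DESeq2, 0 with RLE or upper-quartile scaling, 94 unfiltered, 1716 with the block and 0 with any 1 library left out. Beside 13.1% of all genes in total RNA and 13% on polysomes, the block called 2 members in each of these comparisons, Sepw1 (adjusted p = 0.0489) and Gpx3 (0.0334) in total RNA and Gpx1 (0.0485) and Gpx3 (0.0154) on polysomes. In total RNA the block also called 1 of 8 other selenoproteins, 2 of 14 genes of selenocysteine insertion and 3 of 20 genes of the thioredoxin and glutathione system. There it called 0 of 5 cysteine-containing relatives and 0 of 14 Nrf2 targets. On polysomes the block called 1, 2, 2, 0 and 1 in the same order of lists. The block called 0 genes for the interaction. Hnrnpd in total RNA had adjusted p-values between 2.48e-07 (DESeq2) and 0.393 (a library left out) over the alternatives, and 0.000896 with the block. Differences between replicates 1 and 2 correlated between groups with r from 0.62 to 0.81 across 13167 genes, but with 2 numbers and no label on what equal numbers have in common, they were not treated as pairs.

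Leaving out 1 library moved the polysome over total log2 fold change of Sepw1 to between -2.38 and -2.05 in AUF1 and between -2.33 and -2.22 in WT cells, and Gpx1 and Gpx4 also stayed below 0 in both. In AUF1 and in WT cells the ranges spanned 0 for Gpx3 (-0.97 to 0.40 and -1.10 to 1.35), Txnrd2 (-0.97 to 0.45 and -0.78 to 0.24), Selk (-0.25 to 0.77 and -0.67 to 0.70) and Sepn1 (-3.06 to 1.61 and -2.75 to 1.55), and in WT cells for Selm (-0.26 to 0.41) and Txnrd1 (-0.01 to 0.34). It turned the sign of AUF1 against WT in total RNA for Txnrd2 (-0.64 to 0.82), Selk (-1.06 to 0.05), Sepn1 (-2.46 to 1.61) and Selm (-0.70 to 0.10), and on polysomes for Selk (-0.78 to 0.39) and Sepn1 (-2.88 to 1.90). The interaction ranged from -0.12 to 0.23 for Sepw1, -1.73 to 0.65 for Gpx3, -0.71 to 0.04 for Gpx4, -0.13 to 0.26 for Txnrd1, -0.61 to 0.78 for Txnrd2, -0.34 to 0.96 for Selk and -2.66 to 2.12 for Sepn1. The cause was not tested.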
